A study of Hordeum vulgare with 30 samples.

Results

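The response of Regina roots to 24 h of waterlogging was taken from the 3 waterlogged and the 3 control libraries of this variety, over every gene that passed an expression filter. These were 20576 of the 35826 genes in the count table. The filter was set on all 30 libraries of the series, which holds 5 barley varieties with and without waterlogging, so 220 of the 20576 genes had no count in any Regina library; 23324 genes had at least 1 count in a Regina library. Regina is a winter barley with 2-row ears, and its labels name no transgene or mutant allele. Its plants were 10 days old, and each sample pooled the roots of 3 plants; the waterlogged plants stood in water above the soil surface, and the control plants were not flooded. The other varieties were Golden Promise (spring, 2-row), Infinity (winter, 2-row), and Passport and Pilastro (winter, 6-row). The comparison asked which root transcripts of Regina changed over the first day of flooding.

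Water fills the air spaces of flooded soil, and oxygen diffuses through it slowly, so roots turn from respiration to fermentation. Pyruvate decarboxylase and alcohol dehydrogenase then convert pyruvate to ethanol and regenerate the NAD+ that glycolysis needs. In Arabidopsis, plant cysteine oxidases use oxygen to mark group VII ethylene response factors for degradation. When oxygen runs short these transcription factors persist and switch on fermentation genes, a hemoglobin that removes nitric oxide, and the oxidases themselves. Ethylene, made from 1-aminocyclopropane-1-carboxylate (ACC), also collects in flooded tissue.

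The 6 libraries held between 10382081 and 10832012 counts, and 21301 to 21638 genes had a count in each. Levels are given as CPM, counts scaled by library size after TMM normalization, and a single count corresponded to 0.0893 to 0.0974 CPM. Correlations of log2(CPM + 1) between pairs of these libraries ran from 0.929 to 0.980. The control with replicate number 1 often lay nearest to the waterlogged libraries. It was the highest of the 3 controls in 276 of the 526 genes raised (52.5%), against 31.0% of all genes tested, and the lowest in 164 of the 306 genes lowered (53.6%). The share of all genes tested in which it was the lowest was not computed. Ties that held replicate number 1 were counted for it. They included 12 raised genes with no count in any control and the 220 tested genes with no count in Regina. Of 7 shoot markers (small subunit of Rubisco, early light-induced proteins, protochlorophyllide reductase), 1 to 5 had a count in a library, and their sum was 1.21 to 5.72 CPM in controls and 0.669 to 6.56 CPM in waterlogged roots. Of 11 markers of the grain (seed storage globulins and a glutenin), 6 to 8 had a count in a library and 2 had none in any. Their sum was 323 to 562 CPM in controls and 188 to 249 CPM in waterlogged roots, so the groups did not overlap, and 2 of the 11 genes carried nearly all of it. The part that grain tissue, or any other change in the mix of cells, had in the genes lowered was not tested. In roots sequenced in bulk, fewer cells of a type and less RNA per cell cannot be told apart.

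Waterlogging raised 526 genes and lowered 306 genes in Regina (edgeR quasi-likelihood test, adjusted p under 0.05), which was 4.04% of the genes tested, with 2.56% raised and 1.49% lowered. The median fold change of the 526 raised genes was 2.63, and 369 of them rose at least 2-fold. The median fall of the 306 lowered genes was 2.12-fold, and 166 of them fell at least 2-fold. Changes of at least 10-fold were found for 73 genes raised and 25 genes lowered. The waterlogged libraries did not overlap the controls for 518 of the raised and 280 of the lowered genes; over all genes tested, 17% did not overlap, with 8.87% higher and 8.09% lower in every waterlogged library. The raised genes took 2.72% to 3.37% of the normalized counts in the control libraries and 7.72% to 9.90% in the waterlogged ones. The lowered genes took 1.86% to 2.23% and 0.867% to 1.10%. The number of calls depended on single libraries: it was 445 without the control with replicate number 2 and 451 without the waterlogged sample with replicate number 2. With the replicate number as a block, 5.84% of genes were called (3.69% raised, 2.15% lowered), and DESeq2 called 5.86% of the genes it gave an adjusted p. An unadjusted p under 0.05 was found for 15.1%. When the 6 Regina libraries were fitted alone, 345 genes were called, 302 of them among the 832.

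**Figure D1:**
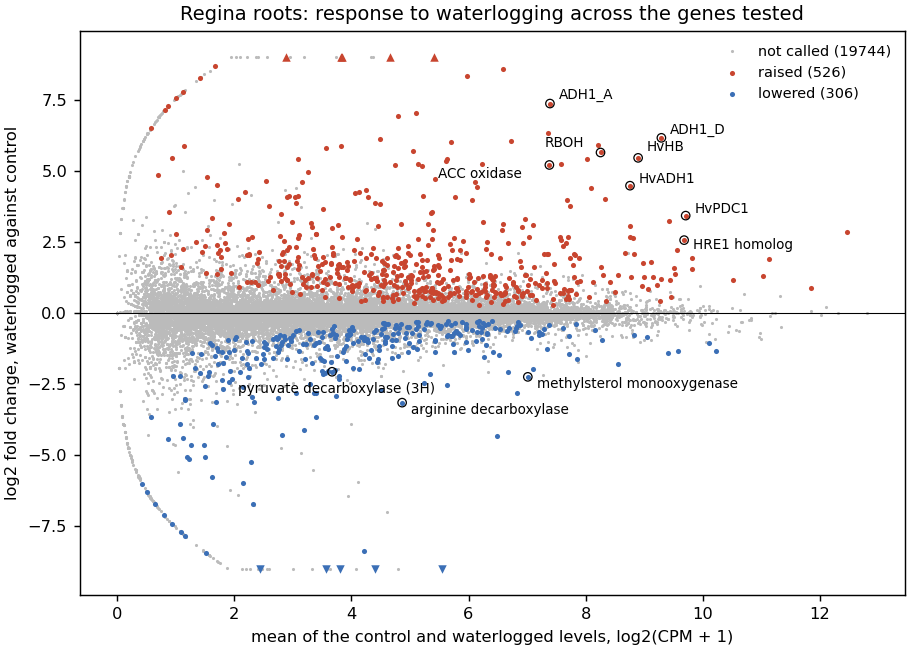
Each point is 1 of the 20576 genes tested. The x axis gives the mean of the control and waterlogged levels as log2(CPM + 1), and the y axis the log2 fold change of waterlogged against control Regina roots. Raised genes (526) are red and lowered genes (306) blue; triangles mark fitted changes beyond the axis, and the curved outer edges are genes with counts in 1 group only. The labelled genes HvADH1, ADH1_D, ADH1_A, HvPDC1 and HvHB lie at the upper right, with high levels and large changes. The labelled pyruvate decarboxylase of chromosome 3H lies among the lowered genes.

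Genes are named here as the study names them or by the descriptions in its supplementary tables, with the identifier of the Morex version 3 annotation after its prefix HORVU.MOREX.r3.; the digit and letter before the G give the chromosome. Descriptions were at hand for 3798 of the genes tested and for 301 of the 832 called. Part of them come from the study's own list of responding genes, and 7.93% of the described genes were called. Lists of gene families were therefore drawn only from tables at hand without regard to response, apart from the genes that the study gives by identifier. Most of those were chosen on these same samples, so their direction is not independent evidence. Counts of called members are to be read beside the shares of all genes tested: 4.04% called, 2.56% raised and 1.49% lowered. At these shares, a short list with 1 call or none does not stand out from all genes.

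Of 30 alcohol dehydrogenases tested, which make ethanol, 5 rose. HvADH1 (4HG0345760), an alcohol dehydrogenase used as a marker of low oxygen, stood at 61.2, 31.3 and 19.1 CPM in the 3 controls and at 1004, 867 and 608 CPM in the 3 waterlogged libraries. Every waterlogged value was far above every control, a 22.2-fold rise (log2 fold change 4.47 ± 0.58 (SE), adjusted p = 7.41e-05). Its neighbour ADH1_D (4HG0345740) went from 30.5, 15.8 and 5.71 CPM to 1517, 1317 and 874 CPM, or 71.3-fold (log2 fold change 6.16 ± 0.82 (SE), adjusted p = 0.000103). ADH1_A (1HG0082960) was close to absent in controls at 3.34, 2 and 0.714 CPM and reached 349, 413 and 232 CPM, the largest fold change of the family at 164-fold (log2 fold change 7.36 ± 1.00 (SE), adjusted p = 0.000129). ADH1_C (3HG0252910) rose from 0, 0.762 and 0.536 CPM to 29.9, 30.1 and 18 CPM (log2 fold change 5.88 ± 1.17 (SE), adjusted p = 0.00545). ADH1_B (2HG0115170) had no counts in 2 controls and 6.96 CPM in the control with replicate number 1, against 110.5, 103 and 69.4 CPM after waterlogging (log2 fold change 5.34 ± 1.15 (SE), adjusted p = 0.00818); without the control with replicate number 2 its adjusted p was 0.051. The list held 40 alcohol dehydrogenases, and the other 25 tested did not pass. The median log2 fold change of the 30 was 0.0027, or 0.0053 with genes at 0 in 1 group set to their bound, beside -0.02 over all genes tested. Closely related copies can share short reads, and how such reads were assigned is not given in the sources used here, so the split between neighbouring copies is uncertain.

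A pyruvate decarboxylase gene was called in each direction. No list of this family was made, so these are single genes and not a count over it. The study named HvPDC1 as a hypoxia response marker. The other gene was named for its small p in the comparison with the other varieties. HvPDC1 (4HG0384560) rose 10.7-fold, from 189.6, 139 and 99.3 CPM to 1999, 1496 and 1092 CPM (log2 fold change 3.42 ± 0.47 (SE), adjusted p = 0.000129). A second gene described as pyruvate decarboxylase, 3HG0235810, moved the other way: its controls stood at 6.86, 23.9 and 26 CPM and its waterlogged libraries at 4.15, 6.53 and 2.87 CPM (log2 fold change -2.07 ± 0.37 (SE), adjusted p = 0.00132). The groups did not overlap, although the control with replicate number 1 lay near the waterlogged values. Aldehyde dehydrogenases oxidize the acetaldehyde that pyruvate decarboxylase releases, among other substrates. Of 16 tested, 2 fell and 14 did not pass, and the median was -0.22. The 2 were 2HG0173750, at 169.6, 203 and 195 CPM in controls and 119, 104 and 118 CPM in waterlogged roots (log2 fold change -0.74 ± 0.11 (SE), adjusted p = 0.000356), and 7HG0671360, at 279, 267 and 254 CPM and 155, 109.8 and 192 CPM (log2 fold change -0.81 ± 0.17 (SE), adjusted p = 0.00484).

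**Figure D2:**
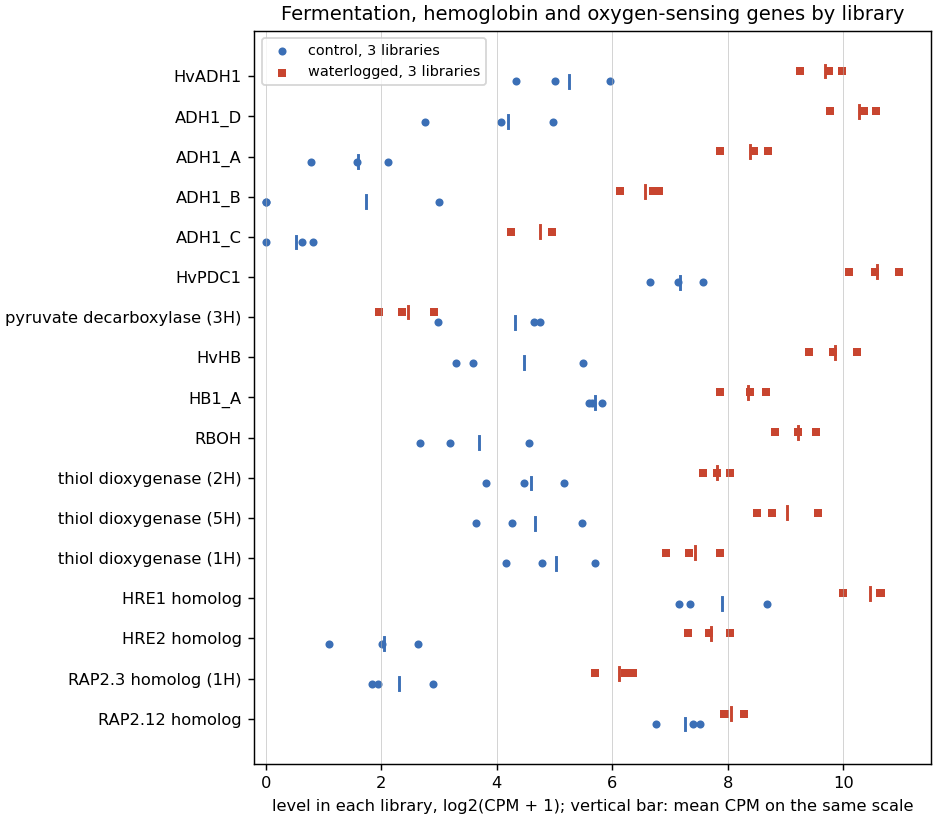
Levels of 17 genes of fermentation, hemoglobin, oxidase and oxygen sensing in each Regina library, as log2(CPM + 1); blue circles are the 3 control and red squares the 3 waterlogged libraries, and vertical bars mark the mean CPM of each group on the same scale. Levels compare libraries within a gene, not genes with each other. All genes drawn lie higher in the waterlogged libraries, except the pyruvate decarboxylase of chromosome 3H, which lies lower.

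The hemoglobin genes and the respiratory burst oxidase rose as well. HvHB (4HG0394960), a class of hemoglobin that scavenges nitric oxide, was measured at 44, 11 and 8.84 CPM in controls and 903, 1206 and 681 CPM in waterlogged roots, 43.7-fold higher (log2 fold change 5.45 ± 0.86 (SE), adjusted p = 0.000468). A second hemoglobin gene, HB1_A (7HG0715010), already had 55.6, 49.4 and 47.3 CPM in controls, with little spread, and reached 332, 407 and 233 CPM (log2 fold change 2.67 ± 0.35 (SE), adjusted p = 7.41e-05). The RBOH gene 5HG0444960, whose product makes superoxide outside the plasma membrane, rose from 22.4, 8.1 and 5.36 CPM to 741, 596 and 453 CPM, or 49.8-fold (log2 fold change 5.64 ± 0.86 (SE), adjusted p = 0.000339). In HvHB and RBOH the control with replicate number 1 had more than the other 2 controls together, and it remained well under every waterlogged library.

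Of the 6 genes described as 2-aminoethanethiol dioxygenases, the family that holds the plant cysteine oxidases, 4 rose and 2 did not pass the test, with a median log2 fold change of 2.87; with the 6 Regina libraries alone, 2 were called. The gene 2HG0208830 went from 34.9, 21.1 and 13.1 CPM to 264, 223 and 188 CPM (log2 fold change 3.29 ± 0.41 (SE), adjusted p = 5.53e-05). The neighbours 5HG0425080 and 5HG0425090 rose together. The former went from 43.6, 18.2 and 11.4 CPM to 753, 365 and 435 CPM (log2 fold change 4.41 ± 0.72 (SE), adjusted p = 0.000598). The latter had 4.08 CPM in the control with replicate number 1, none in the other controls, and 64.9, 54.6 and 31 CPM in waterlogged roots (log2 fold change 5.20 ± 1.33 (SE), adjusted p = 0.0284); its adjusted p lay between 0.0661 and 0.135 without the control with number 2 or 3 or the waterlogged sample with number 1 or 2. The gene 1HG0094490 rose 5.44-fold, from 51.1, 26.6 and 16.8 CPM to 233, 120.3 and 161 CPM (log2 fold change 2.44 ± 0.42 (SE), adjusted p = 0.000981). The remaining members, 5HG0473030 and 6HG0605360, had log2 fold changes of 0.02 ± 0.34 and 0.13 ± 0.09 (SE).

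Among the group VII ethylene response factors, which these oxidases act on in Arabidopsis, the size of the change differed widely between genes. The HRE2 homolog 5HG0497970 rose 65.9-fold, from 5.19, 1.14 and 3.04 CPM to 261, 203 and 158 CPM (log2 fold change 6.04 ± 0.93 (SE), adjusted p = 0.000368). The HRE1 homolog 4HG0405650 had 411, 142 and 161 CPM in controls, the highest in the control with replicate number 1, and 1587, 1020 and 1603 CPM in waterlogged roots (log2 fold change 2.56 ± 0.38 (SE), adjusted p = 0.000246). The RAP2.3 homologs 1HG0060770 and 2HG0112960 rose 17.4-fold and 17.1-fold, to 68.7 and 14.2 CPM on average (adjusted p = 0.000238 and 0.00132). The RAP2.12 homolog 5HG0481240 changed least of those called, from 183, 168 and 107 CPM to 246, 309 and 242 CPM (log2 fold change 0.80 ± 0.20 (SE), adjusted p = 0.0217). That call was lost without the control with number 3 (adjusted p 0.0953) or the waterlogged sample with number 2 (0.124). A further HRE2 homolog, 6HG0621670, which lies at a locus for waterlogging tolerance, overlapped between groups at 91.2, 82.6 and 68.7 CPM and 86.6, 125 and 96.3 CPM and did not pass (log2 fold change 0.35 ± 0.15 (SE), adjusted p = 0.258). Of 6 ethylene-responsive factors tested on chromosome 1H, 1HG0060770 was the gene called.

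The enzymes of ethylene synthesis moved in both directions. Of 13 ACC synthases, which make the ethylene precursor, and ACC oxidases, which use oxygen to turn it into ethylene, 6 rose, 2 fell and 5 did not pass; the median log2 fold change was 0.81. The ACC oxidase 7HG0746640 rose from 16.3, 4.95 and 5 CPM to 382, 323 and 263 CPM, 36.8-fold (log2 fold change 5.20 ± 0.68 (SE), adjusted p = 7.51e-05). The ACC oxidase 1HG0021970 rose from 6.68, 9.72 and 12.4 CPM to 22.3, 96.1 and 57.4 CPM, with a wide spread among the waterlogged libraries (log2 fold change 2.61 ± 0.44 (SE), adjusted p = 0.00079). Against these, the ACC oxidase 4HG0347170 fell 7.09-fold, from 7.33, 20.2 and 22.5 CPM to 1.93, 1.75 and 3.34 CPM (log2 fold change -2.82 ± 0.61 (SE), adjusted p = 0.00697); without the waterlogged sample with number 2 its adjusted p was 0.0517. The ACC synthase 4HG0339160 was nearly silent in controls at 0.371, 0.381 and 1.25 CPM and reached 12.2, 9.94 and 5.92 CPM (log2 fold change 3.77 ± 0.70 (SE), adjusted p = 0.00194). The ACC synthase 7HG0644540 rose by less, from 13.9, 15.1 and 13.9 CPM to 21.8, 29.8 and 23.5 CPM (log2 fold change 0.81 ± 0.16 (SE), adjusted p = 0.00299). The ACC oxidase 5HG0485790, whose neighbour 5HG0485780 was also raised, went from 10.6, 11.3 and 4.82 CPM to 20.9, 23 and 17.2 CPM (log2 fold change 1.19 ± 0.26 (SE), adjusted p = 0.00713). With the 6 Regina libraries alone, 2 members were called raised and 1 lowered. Without the waterlogged sample with number 2, 5 members rose and none fell (edgeR); over all 6 libraries, 2 members were lowered at an unadjusted p under 0.05 and 2 were called lowered by DESeq2.

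Of 27 enzymes of starch and sugar breakdown tested, 1 was called, the alpha-amylase 7HG0721200. That was 3.70%, near the 4.04% of all genes tested. At an unadjusted p under 0.05, 3 were raised and 7 lowered; DESeq2 called 2 raised and 1 lowered, and the fit with the replicate block 2 raised. Of the 27, 22 had a log2 fold change under 0 (10956 of all 20576 genes), with a median of -0.28. The alpha-amylase, which cuts starch into sugars, rose from 6.77, 4.38 and 7.77 CPM to 90.9, 60.5 and 73 CPM, or 11.8-fold (log2 fold change 3.56 ± 0.45 (SE), adjusted p = 6.9e-05). Further down the pathway, none of 14 phosphoglycerate mutases was called by edgeR, with 4 at an unadjusted p under 0.05 and 1 called by DESeq2. The member with the most counts, 3HG0297100, had 753, 837 and 343 CPM in controls and 809.7, 1257 and 645 CPM in waterlogged roots (log2 fold change 0.49 ± 0.31 (SE), adjusted p = 0.514). Phosphoenolpyruvate carboxykinase (4HG0391040), which works in the opposite direction by making phosphoenolpyruvate for sugar synthesis, fell 5.79-fold, from 74.9, 62.5 and 112 CPM to 10.7, 12.2 and 20.1 CPM (log2 fold change -2.53 ± 0.61 (SE), adjusted p = 0.0167). Its adjusted p was 0.0579, 0.0836 or 0.0905 without the control with number 3 or the waterlogged sample with number 1 or 2. An aminotransferase (2HG0190680) fell from 83.6, 90.4 and 92.3 CPM to 40.2, 28 and 40.8 CPM (log2 fold change -1.29 ± 0.22 (SE), adjusted p = 0.000981).

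A desaturase stood out among the genes of fatty acid synthesis. The acyl-[acyl-carrier-protein] desaturase 3HG0307490, an enzyme that uses oxygen to place a double bond in stearate, rose 38.1-fold, from 16.9, 5.81 and 6.61 CPM to 522, 324 and 271 CPM (log2 fold change 5.25 ± 0.88 (SE), adjusted p = 0.00078). The other 12 tested desaturases and acyl carrier proteins did not pass, and the median of the list was 0.01. None of 14 3-ketoacyl-CoA synthases, which lengthen fatty acids for waxes and suberin, was called by edgeR; 5 were under an unadjusted p of 0.05 and DESeq2 called 1. The synthase 6HG0577300 had 165, 135 and 122 CPM and 169.8, 203 and 162 CPM. An alpha/beta-hydrolase (2HG0186020) rose from 0.371, 0.286 and 0.357 CPM to 20.7, 11.6 and 11.8 CPM (log2 fold change 5.40 ± 0.87 (SE), adjusted p = 0.000597). A cysteine proteinase inhibitor (3HG0287360) rose from 0.557, 0.286 and 0.268 CPM to 6.66, 7.99 and 3.44 CPM (log2 fold change 3.99 ± 0.64 (SE), adjusted p = 0.00056).

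Genes for abscisic acid, a hormone of water stress, rose at the level of its receptors. Of 19 tested genes for its synthesis and receptors, 4 rose, all of them receptors, 1 fell and 14 did not pass; the median log2 fold change was 0.41. The receptor 1HG0071710 went from 18.8, 10.8 and 10.8 CPM to 61.9, 47.3 and 61.6 CPM (log2 fold change 2.08 ± 0.27 (SE), adjusted p = 7.41e-05). The receptor 4HG0383820 rose 2.51-fold, from 245, 139 and 150.4 CPM to 488, 353 and 499 CPM (log2 fold change 1.33 ± 0.28 (SE), adjusted p = 0.00545). The receptors 3HG0304260 and 7HG0717820 rose 3.13-fold and 3.22-fold (adjusted p = 0.014 and 0.016). The gene that fell, 9-cis epoxycarotenoid dioxygenase 6HG0607370, belongs to the enzymes that limit synthesis of the hormone, and went from 4.55, 3.91 and 2.14 CPM to 1.35, 1.27 and 1.43 CPM (log2 fold change -1.38 ± 0.36 (SE), adjusted p = 0.0304). With the 6 Regina libraries alone, 1 of the list was called raised and none lowered (edgeR; 1 was lowered at an unadjusted p under 0.05 in the full fit and 1 by DESeq2). Only 1HG0071710 of the 5 kept its call without each library in turn. Without the control with number 2, 1 receptor was called raised, and the adjusted p of 4HG0383820, 3HG0304260 and 7HG0717820 was 0.0506, 0.101 and 0.051. Without the control with number 3, the waterlogged sample with number 1 or the waterlogged sample with number 3, 2, 3 and 3 receptors were called; 6HG0607370 had an adjusted p of 0.077 to 0.126 in each fit without a library other than the control with number 3.

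Allene oxide synthase, allene oxide cyclase and oxophytodienoate reductase act in turn to make the wound hormone jasmonate. Genes were listed by these descriptions, and the reductases named here are described as reductase-like. The part of each member in making the hormone was not tested. Of 18 genes tested, 4 fell and 14 did not pass. Their median log2 fold change was -0.55, and 17 of the 18 lay under 0, as did 10956 of all 20576 genes. The allene oxide synthase 6HG0579680 went from 309, 216 and 392 CPM to 133, 78.6 and 126 CPM (log2 fold change -1.44 ± 0.39 (SE), adjusted p = 0.037). The reductase 1HG0002280 went from 115, 84.8 and 121 CPM to 47.2, 45.7 and 53.3 CPM (log2 fold change -1.13 ± 0.27 (SE), adjusted p = 0.0162). The allene oxide cyclase 6HG0619890 and the reductase 1HG0002380 fell 1.56-fold and 2.09-fold (adjusted p = 0.0458 and 0.0337), and with the replicate number as a block their adjusted p was 0.078 and 0.0677, which leaves 2 of the 4 calls. With the 6 Regina libraries alone, 1 of the list was called. These calls rested on single libraries: 2, 3 and 1 genes were called without the control with number 1, the control with number 2 and the waterlogged sample with number 3. None was called by edgeR without the control with number 3 or the waterlogged sample with number 1 or 2, while over all libraries 7 were lowered at an unadjusted p under 0.05 and DESeq2 called 4. Grain markers were also lower in the waterlogged libraries, as given above.

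**Figure D3:**
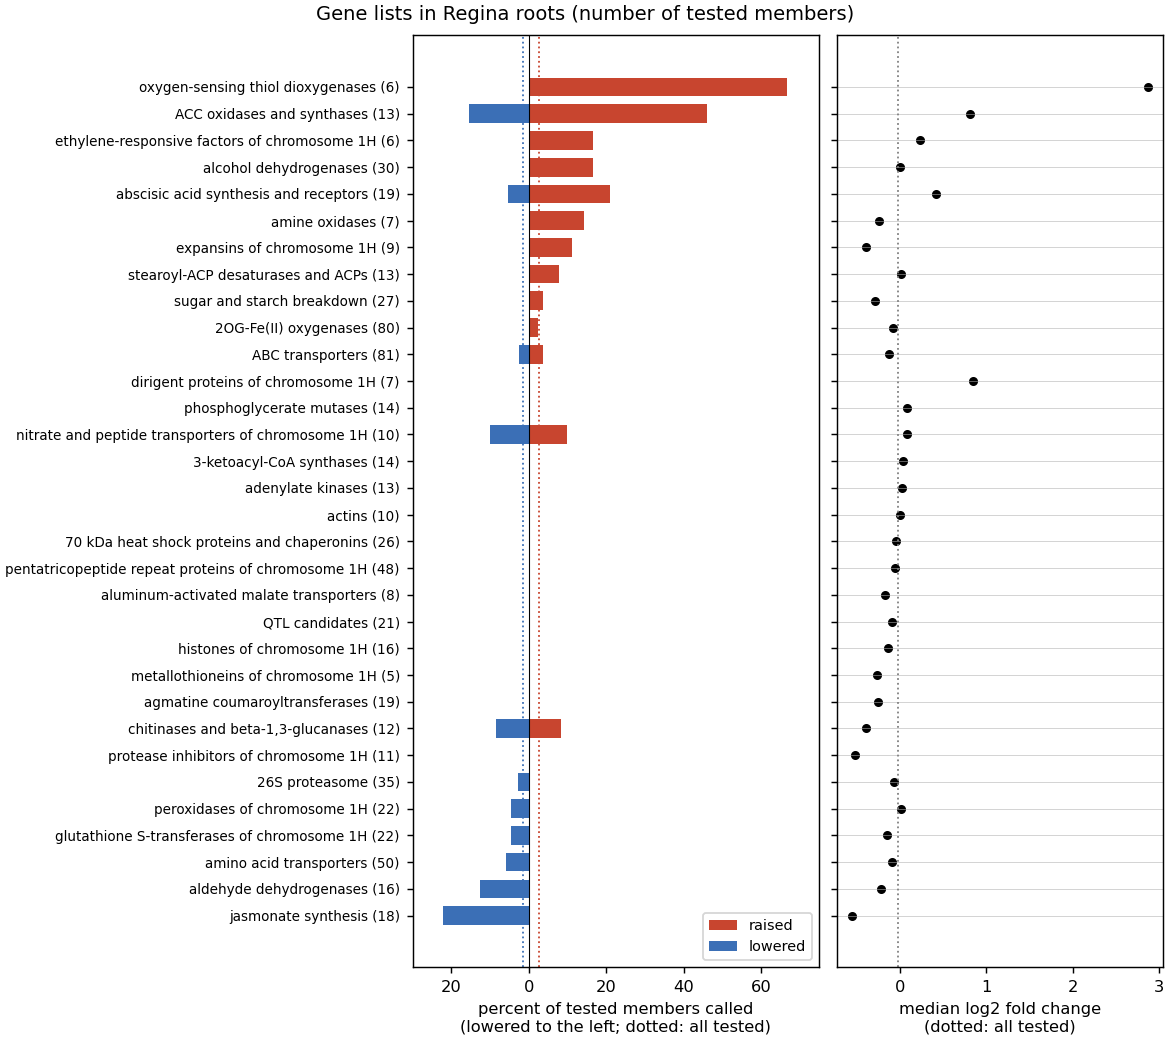
The left panel gives the percent of tested members called raised (red) or lowered (blue, drawn to the left) for each list of genes, with the number tested in parentheses; dotted lines mark all genes tested (2.56% raised and 1.49% lowered). The right panel gives the median log2 fold change of the tested members, with genes at 0 in 1 group set to their bound. In the left panel, bars reach furthest to the right for thiol dioxygenases (4 of 6 raised) and ACC oxidases and synthases (6 of 13 raised). They reach furthest to the left for the list labelled jasmonate synthesis (4 of 18 lowered), whose members were taken by description.

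Of 50 amino acid transporters tested, 3 fell and 47 did not pass. The 3 were 6%, beside 4.04% called and 1.49% lowered among all genes tested. The putative transporter 2HG0173520 went from 16.5, 20.9 and 21.2 CPM to 5.4, 4.38 and 4.87 CPM (log2 fold change -2.00 ± 0.37 (SE), adjusted p = 0.00186). The permease 3HG0298070 fell 3.84-fold and the putative transporter 3HG0300950 2.44-fold (adjusted p = 0.0072 and 0.0106); their adjusted p was 0.0598 and 0.064 without the waterlogged sample with number 2 and 1. The nitrate transporter 1.1 gene 7HG0700030, which takes nitrate into the root, fell from 108, 121 and 171 CPM to 54.9, 39.6 and 50.9 CPM (log2 fold change -1.46 ± 0.22 (SE), adjusted p = 0.000274). A second gene of that description, 1HG0005090, had 0.186, 0.953 and 2.23 CPM in controls and no count in waterlogged roots, at least 3.88-fold lower with a floor of 3 counts per library (adjusted p = 0.00697). Of 10 nitrate and peptide transporters of chromosome 1H it was the gene lowered, and the peptide transporter 1HG0053890 the gene raised (log2 fold change 0.71 ± 0.20 (SE), adjusted p = 0.0455). The latter call was lost in 5 of the 6 fits without a library, with an adjusted p of 0.103 to 0.208, and held without the control with number 1.

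Ion and metabolite transporters showed smaller groups of changes. The vacuolar cation/proton exchanger 3HG0266310, which loads calcium into the vacuole, fell 5-fold, from 18.4, 17.9 and 27.9 CPM to 5.98, 3.02 and 3.82 CPM (log2 fold change -2.32 ± 0.38 (SE), adjusted p = 0.000656). The tonoplast dicarboxylate transporter 7HG0679220, which carries malate into the vacuole, fell from 5.38, 6.86 and 6.16 CPM to 1.74, 0.877 and 1.24 CPM (log2 fold change -2.24 ± 0.31 (SE), adjusted p = 0.000129). The potassium transporter 7HG0736590 did not overlap between groups at 4.64, 4.19 and 5.09 CPM and 2.6, 2.14 and 2.48 CPM but did not pass the test (log2 fold change -0.94 ± 0.43 (SE), adjusted p = 0.288). None of 8 aluminum-activated malate transporters was called by edgeR, with 3 at an unadjusted p under 0.05 and 1 called by DESeq2. The member 7HG0670910 had 38.5, 43.2 and 37.5 CPM in controls and 55.3, 59.5 and 45.7 CPM in waterlogged roots, with an adjusted p of 0.119 and of 0.0265 with the replicate block. Of 81 ABC transporters, 3 rose and 2 fell, or 6.17% beside 4.04% of all genes. The raised members were all of the G family, led by 3HG0283500 from 1.11, 0.667 and 2.23 CPM to 11, 20.2 and 6.12 CPM (log2 fold change 3.20 ± 0.58 (SE), adjusted p = 0.00194) and 7HG0710770 from 20.2, 9.62 and 7.41 CPM to 29.7, 35.7 and 29.9 CPM (log2 fold change 1.35 ± 0.27 (SE), adjusted p = 0.00349). The third, 6HG0559790, and the lowered 4HG0348190 (G family) and 6HG0574990 (B family) had adjusted p of 0.014, 0.0114 and 0.0147. Each of those calls was lost without some single libraries: up to 0.0537, 0.0956 and 0.0896 in adjusted p without the control with number 3 or the waterlogged sample with number 1 or 2 (the G family genes), and without the control with number 2 or 3 or the waterlogged sample with number 3 (the B family gene). 3 ABC transporters were called without the control with number 3, and as many without the waterlogged sample with number 1 or 2. None was called when the 6 Regina libraries were fitted alone with edgeR, against 5 in the full fit and 6 by DESeq2.

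Genes that fell steeply came from several kinds of metabolism. Methylsterol monooxygenase (4HG0347570), an oxygen-using enzyme of sterol synthesis, fell 4.74-fold, from 179, 190.0 and 266 CPM to 55.2, 28.8 and 49.9 CPM (log2 fold change -2.24 ± 0.35 (SE), adjusted p = 0.000442). Carbonic anhydrase (5HG0487570), which interconverts carbon dioxide and bicarbonate, fell 4.39-fold, from 43.1, 61.8 and 87.4 CPM to 17.2, 14 and 12.6 CPM (log2 fold change -2.13 ± 0.28 (SE), adjusted p = 8.97e-05). Neither pair of groups overlapped, and both calls held without each library in turn. Arginine decarboxylase (1HG0002450), an entry point to polyamines, went from 31.5, 64.6 and 55.7 CPM to 9.65, 2.92 and 4.49 CPM, 8.88-fold lower (log2 fold change -3.15 ± 0.67 (SE), adjusted p = 0.00616); without the waterlogged sample with number 2 its adjusted p was 0.0517. An O-methyltransferase (1HG0003780) fell from 139.9, 217 and 235 CPM to 33.2, 12.8 and 37.6 CPM (log2 fold change -2.82 ± 0.74 (SE), adjusted p = 0.0282), and its call held only in the full set and without the control with number 1 (adjusted p 0.0605 to 0.156 without the others). The endoglucanase 7HG0727350, of a family that trims cell walls, fell from 85.1, 59.1 and 43.2 CPM to 10.8, 6.14 and 16.9 CPM (log2 fold change -2.47 ± 0.64 (SE), adjusted p = 0.0279); its adjusted p was 0.0664 with the replicate block and 0.0643 to 0.157 without the control with number 1 or 2 or the waterlogged sample with number 1 or 2.

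In several of the steepest falls the control with replicate number 1 had few counts itself. The DUF1685 family gene 1HG0018620 had 0.464, 13.1 and 9.2 CPM in controls and 0.289, 0 and 0.287 CPM in waterlogged roots (log2 fold change -5.22 ± 1.06 (SE), adjusted p = 0.00433). Dehydrin 6HG0622710, of a family of hydrophilic proteins made under drying and cold, had 2.97, 21.1 and 28.6 CPM and 1.06, 1.17 and 1.91 CPM (log2 fold change -3.66 ± 1.05 (SE), adjusted p = 0.0491). The auxin response factor 2HG0162620 had 2.6, 24.5 and 21.6 CPM and 2.6, 1.17 and 3.06 CPM, so its groups touched (log2 fold change -2.83 ± 0.62 (SE), adjusted p = 0.00854). A transcription activator-like gene (4HG0409470) had 1.48, 29.1 and 4.02 CPM and 0.386, 0.39 and 0.956 CPM (log2 fold change -4.29 ± 1.01 (SE), adjusted p = 0.0145). With the replicate block, the dehydrin, the auxin response factor and the activator-like gene had adjusted p of 0.0901, 0.0677 and 0.0561. Without the control with number 2 they had 0.124, 0.0557 and 0.257, and without the waterlogged sample with number 2 0.188, 0.0669 and 0.0863. The dehydrin was also not called without the control with number 3 (0.127) or the waterlogged sample with number 1 or 3 (0.16 and 0.109), nor the activator-like gene without the waterlogged sample with number 1 (0.0715). A short-chain dehydrogenase/reductase (2HG0163240), with 1.30 CPM in the control with number 1 and 6.38 and 9.91 CPM in the others, fell to 1.25, 0.487 and 1.15 CPM (log2 fold change -2.59 ± 0.58 (SE), adjusted p = 0.01), and was not called without the control with number 3 (0.069) or the waterlogged sample with number 2 (0.0754). Genes described as Emb|CAB62340.1 (3HG0270610) and Plant/T7H20-70 protein (2HG0158120), whose function the descriptions do not give, fell 7.7-fold and 5.6-fold (adjusted p = 0.0497 and 0.0298). The former had an adjusted p of 0.114 with the block. Without single libraries (all but the control with number 1 for the former, all but the waterlogged sample with number 3 for the latter) their adjusted p was 0.0874 to 0.209 and 0.0505 to 0.151.

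**Figure D4:**
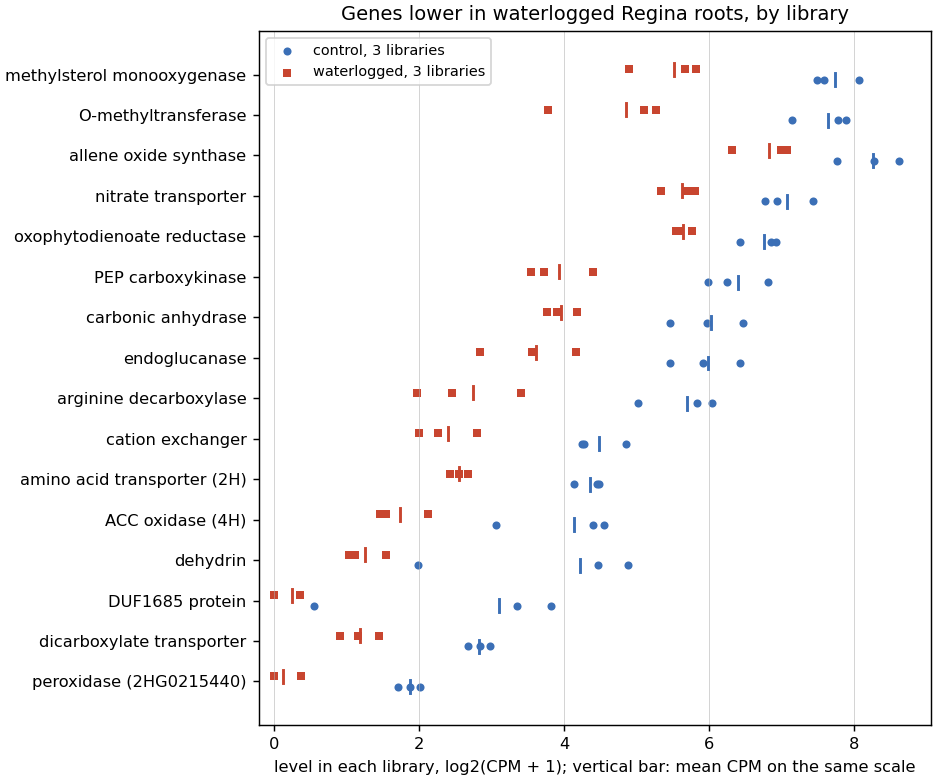
Levels of 16 genes that fell in waterlogged Regina roots, in each library, as log2(CPM + 1); symbols are as in the plot of fermentation genes, with blue circles for the 3 controls, red squares for the 3 waterlogged libraries and vertical bars for the mean CPM. Levels compare libraries within a gene. The groups do not overlap for the genes drawn, and for dehydrin and the DUF1685 protein 1 control lies close to the waterlogged libraries.

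Peroxidases named by the study were low in controls and at or near 0 after waterlogging. The peroxidases 2HG0119650 and 2HG0119630 had 2.5, 2.19 and 0.803 CPM and 2.23, 2.67 and 1.87 CPM in controls and no count in any waterlogged library. They were at least 6.33-fold and 7.79-fold lower, taking 3 counts per library as the floor (adjusted p = 0.00349 and 0.00616). The peroxidase 2HG0215440 had 3.06, 2.29 and 2.68 CPM in controls and 3 counts in all over the waterlogged libraries. The ratio was 27.8 with an exact binomial 95% counting interval of 9.19 to 137 (edgeR adjusted p = 0.00199). On chromosome 1H, whose peroxidases were listed without regard to response, 1 of 22 fell and 21 did not pass, with a median of 0.0073. The share was 4.55%, beside 4.04% called and 1.49% lowered among all genes tested. That gene, 1HG0017280, went from 81.5, 63.2 and 68.3 CPM to 40.7, 33.2 and 26.4 CPM (log2 fold change -1.09 ± 0.26 (SE), adjusted p = 0.0156) and was not called without the control with number 1 (0.0615) or the waterlogged sample with number 2 or 3 (0.0714 and 0.0866). Of 22 glutathione S-transferases of that chromosome, which detoxify by adding glutathione, 1 was called (4.55%). This gene, 1HG0051900, fell 2.24-fold, from 8.35, 8.19 and 6.43 CPM to 4.44, 3.12 and 2.68 CPM (log2 fold change -1.16 ± 0.24 (SE), adjusted p = 0.00452). Of 9 expansins, which loosen cell walls, 7 had a log2 fold change under 0 (10956 of all 20576 genes), with a median of -0.39. At an unadjusted p under 0.05, 1 was raised and 4 lowered. The fit with the replicate block called 1 raised and 1 lowered. The member called raised, 1HG0056600, went from 6.86, 4 and 3.48 CPM to 11.9, 28.9 and 8.7 CPM (log2 fold change 1.78 ± 0.45 (SE), adjusted p = 0.0213). That call was lost without the control with number 2 or 3 (0.111 and 0.0837) or the waterlogged sample with number 2 (0.25).

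Other enzyme families changed in a few members at most. Of 80 oxygenases that depend on 2-oxoglutarate and iron, 2 rose, or 2.5% beside 2.56% of all genes raised. The gene 6HG0609670 went from 29.5, 24.7 and 20.2 CPM to 63.2, 70.4 and 53 CPM (log2 fold change 1.33 ± 0.23 (SE), adjusted p = 0.000981), and 4HG0417080 rose 2.2-fold (adjusted p = 0.00783, and 0.0612 without the control with number 2). Of 7 amine oxidases, which break down polyamines and other amines, 2HG0211680 rose from 40.0, 40.8 and 33.5 CPM to 75.4, 90.6 and 102 CPM (log2 fold change 1.23 ± 0.24 (SE), adjusted p = 0.00342). The median log2 fold change of the 7 was -0.24. At an unadjusted p under 0.05, 2 were raised and 3 lowered, and DESeq2 called 2 raised and 1 lowered. Of 12 chitinases and beta-1,3-glucanases, which attack fungal walls, the acidic chitinase 2HG0196890 fell and the acidic chitinase 2HG0100710 rose. The former had 0.278, 2.95 and 3.3 CPM and 0.289, 0.292 and 0.191 CPM, with overlapping groups (log2 fold change -3.03 ± 0.79 (SE), adjusted p = 0.0349). The latter had 1 count in all over the controls and 2.03, 0.974 and 4.2 CPM after waterlogging, a ratio of 78.3 with a 95% counting interval of 13.6 to 3135 (adjusted p = 0.0349). With the replicate block their adjusted p was 0.0941 and 0.0705, and the rise was also not called by DESeq2 (0.0853). The fall was lost without any library other than the control with number 1 (up to 0.133), and the rise without any other than the waterlogged sample with number 2 (up to 0.148).

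Few genes of chaperones, the cytoskeleton, protein breakdown and chromatin passed the test, beside 4.04% of all genes tested. At that share, lists of this size hold few calls or none. None of 26 heat shock proteins of 70 kDa and chaperonins was called by edgeR (1 at an unadjusted p under 0.05, 0 by DESeq2), and their median log2 fold change was -0.04. The member with the most counts, 5HG0526250, had 7019, 7527 and 6832 CPM in controls and 7649, 6417 and 7563 CPM in waterlogged roots. None of 10 actins was called (0 at an unadjusted p under 0.05, 0 by DESeq2); actin 1HG0003140 had 666, 637 and 554 CPM and 669.8, 695 and 644 CPM. None of 13 adenylate kinases, which balance the adenine nucleotides, was called (1 and 0), and 5HG0452570 had 117, 101 and 86.7 CPM and 100.0, 108 and 89.8 CPM. Of 35 subunits of the 26S proteasome, 1 fell: 2HG0170840, from 86.6, 88.1 and 76.9 CPM to 64.3, 66.4 and 67.3 CPM (log2 fold change -0.35 ± 0.08 (SE), adjusted p = 0.0105), which was not called without the control with number 2 (0.0686) or the waterlogged sample with number 1 (0.0508). On chromosome 1H, none of 16 histones (0 at an unadjusted p under 0.05, 0 by DESeq2), 48 pentatricopeptide repeat proteins (1 and 0) or 5 metallothioneins (0 and 0) was called. Histone H2A 1HG0006610, pentatricopeptide gene 1HG0027490 and metallothionein 1HG0061580 had log2 fold changes of -0.09 ± 0.34, 0.28 ± 0.37 and -0.47 ± 0.25 (SE).

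None of 19 agmatine coumaroyltransferases, which make antifungal hordatines in barley, was called by edgeR (5 at an unadjusted p under 0.05, 0 by DESeq2). The 5 were 1 raised and 4 lowered, and the fit with the replicate block called 1 lowered. Of the 19, 12 had a log2 fold change under 0 (10956 of all 20576 genes), with a median of -0.30. The gene 2HG0200920 had 19, 22.3 and 46.2 CPM in controls and 23, 63.9 and 67.6 CPM in waterlogged roots. None of 7 dirigent proteins of chromosome 1H, which steer lignan coupling, was called (1 and 0), although their median log2 fold change was 0.84. In the dirigent gene 1HG0006090 the sample with replicate number 2 stood apart among the waterlogged libraries, at 3.86, 73.6 and 4.59 CPM against 16.9, 7.14 and 18.7 CPM in controls. None of 11 protease inhibitors of chromosome 1H was called by edgeR (6 at an unadjusted p under 0.05, 3 by DESeq2). The 6 were 3 raised and 3 lowered, and the DESeq2 calls 1 raised and 2 lowered. Of the 11, 8 had a log2 fold change under 0 (10956 of all 20576 genes), with a median of -0.52. The wound-induced inhibitor 1HG0067190 had 249, 268 and 399 CPM and 565, 447 and 445 CPM (log2 fold change 0.67 ± 0.26 (SE), adjusted p = 0.193). None of 21 tested candidate genes of waterlogging loci was called (3 and 0), and the aquaporin 2HG0188290 had 757, 667 and 553 CPM and 661, 464 and 471 CPM (log2 fold change -0.31 ± 0.24 (SE), adjusted p = 0.636). Of the 7 grain markers tested, the globulin 1HG0008450 was called lowered, from 134, 109.8 and 122 CPM to 87.3, 63.7 and 84.2 CPM (log2 fold change -0.64 ± 0.18 (SE), adjusted p = 0.0497); its adjusted p was 0.0649 with the block and 0.0659 to 0.263 in every fit without a library. Of the shoot markers, the Rubisco gene 1HG0037500 had 0.835, 3.81 and 3.12 CPM and 0.868, 1.66 and 0 CPM.

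Some genes went from no counts to a clear level, or the reverse. Of the genes raised, 15 had at most 3 counts in all over the 3 controls, 12 of them none, and 5 of the 15 reached a mean of 5 CPM after waterlogging. Of the genes lowered, 24 had at most 3 counts in all over the waterlogged libraries, 11 of them none, and 8 of the 24 had a mean of at least 5 CPM in controls. A run of genes on chromosome 7H held 3 of the former. Early nodulin 93 (7HG0649520), of a family first described in soybean root nodules, had no count in controls and 35.9, 28.5 and 14.3 CPM after waterlogging, at least 94.6-fold higher with 3 counts per library as the floor (adjusted p = 0.0252). Its adjusted p was 0.0556 to 0.0988 without any library other than the waterlogged sample with number 3. The nearby genes 7HG0649490 and 7HG0649510, which have no description at hand, also had no count in controls. They reached 104, 96.6 and 47.3 CPM and 73, 42.3 and 29.5 CPM, at least 298-fold and 174-fold higher (adjusted p = 0.000889 and 0.000873).

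The steepest falls without a description were uneven among the controls. The gene 7HG0711550 had 0.464, 52.4 and 25.4 CPM in controls and no count after waterlogging, at least 90.2-fold lower (adjusted p = 0.0217). The gene 6HG0622760 had 0.649, 151 and 123 CPM in controls and 2 counts in all after waterlogging, a ratio of 1420 with a 95% counting interval of 393 to 11733 (adjusted p = 0.0156). In both, the control with replicate number 1 was under 1 CPM, so nearly all of the control level came from the other 2 libraries. Without the waterlogged sample with number 1, 2 or 3 their adjusted p was 0.0752, 0.0902 and 0.074 for the former and 0.0728, 0.087 and 0.0696 for the latter, and the former was also not called without the control with number 2 (0.0697).

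The last comparison set the response of Regina against the mean response of the other 4 varieties, each measured against its own controls. In the test of the difference itself, 1 gene of 20576 was called (0.00486%), as lower in Regina; 168 genes were above and 224 below at an unadjusted p under 0.05, and DESeq2 called 12 (5 above, 7 below). With the replicate number as a block, 8 genes were called, 2 above and 6 below. The called gene, on chromosome 7H, has no description at hand and very few counts: 1.21, 0.381 and 0.446 CPM in the Regina controls and no count in the waterlogged Regina libraries. In the 24 libraries of the other varieties it ranged from 0.408 to 1.50 CPM. Among Regina's 832 calls, 45 had a group of libraries all at 0 in some variety, where the fitted size of the contrast depends on the prior count and is no bound. The called gene is of this kind.

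The 6 described genes with the smallest p-values in this contrast did not pass with edgeR. Beta-galactosidase 1HG0066860 had 0, 1.33 and 1.16 CPM in Regina controls and no count after waterlogging, and an adjusted p of 0.303 in the contrast; its adjusted p was 0.0187 with the block and 0.0386 with DESeq2. Alpha-L-arabinofuranosidase 4HG0356240, which like the galactosidase trims wall sugars, had no count in Regina controls and 1.45, 2.14 and 1.34 CPM after waterlogging (adjusted p of the contrast = 1, and 0.0358 with DESeq2). Its own response was called (adjusted p = 0.0178) but not without any control (adjusted p up to 0.0721) or without the waterlogged sample with number 2 (0.0584). The pyruvate decarboxylase 3HG0235810 had a log2 fold change of -2.07 ± 0.37 (SE) in Regina, against -0.90, -0.24, -0.87 and -0.16 in Golden Promise, Infinity, Passport and Pilastro (contrast -1.52 ± 0.40, adjusted p = 1). The auxin response factor 2HG0162620 had a contrast of -2.42 ± 0.68 (adjusted p = 1). Alpha-glucan water dikinase 7HG0677380, which phosphorylates starch, had 32.6, 36.8 and 49.4 CPM in Regina controls and 26.9, 23.1 and 30.1 CPM after waterlogging (log2 fold change -0.57 ± 0.17 (SE), adjusted p = 0.0571, and 0.0404 with DESeq2), and a contrast of -0.66 ± 0.19 (adjusted p = 1). The rRNA N-glycosidase 1HG0059440 had 0.928, 5.05 and 1.43 CPM and 0.482, 0 and 0.287 CPM in Regina and a contrast of -4.46 ± 1.24 (adjusted p = 1).

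The varieties otherwise shared directions with Regina. Of the 832 Regina calls, 547 were also called in at least 1 other variety and 285 in none; the latter were not shown to differ between varieties, since the contrast called 1 gene. Calls shared with Infinity made up 52.2% of the Regina calls and 53.8% of the Infinity calls, and those shared with Pilastro 42.2% and 44.7%. Passport shared 22.5% of the Regina calls and 83.9% of its own, and Golden Promise 9.98% and 91.2%. No gene called in Regina and in another variety had opposite directions. The calls of all varieties came from 1 fit with a shared filter and shared estimates of spread. Of 27 genes raised in all 4 other varieties, all 27 were raised in Regina, and in 22 the Regina fold change was above each of the 4; their median log2 fold change was 2.67 in Regina and 1.82 to 2.31 in the others. For HvADH1 the log2 fold change was 4.47 ± 0.58 (SE) in Regina and 3.22, 3.54, 2.92 and 2.92 in Golden Promise, Infinity, Passport and Pilastro (contrast 1.32 ± 0.57, adjusted p = 1). For HvHB it was 5.45 ± 0.86 in Regina, which lay inside the range of the others, 2.72 to 6.40 (adjusted p of the contrast = 1). The size of the difference for these 27 genes as a set was not tested, and gene by gene none passed in the contrast with edgeR.

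**Figure D5:**
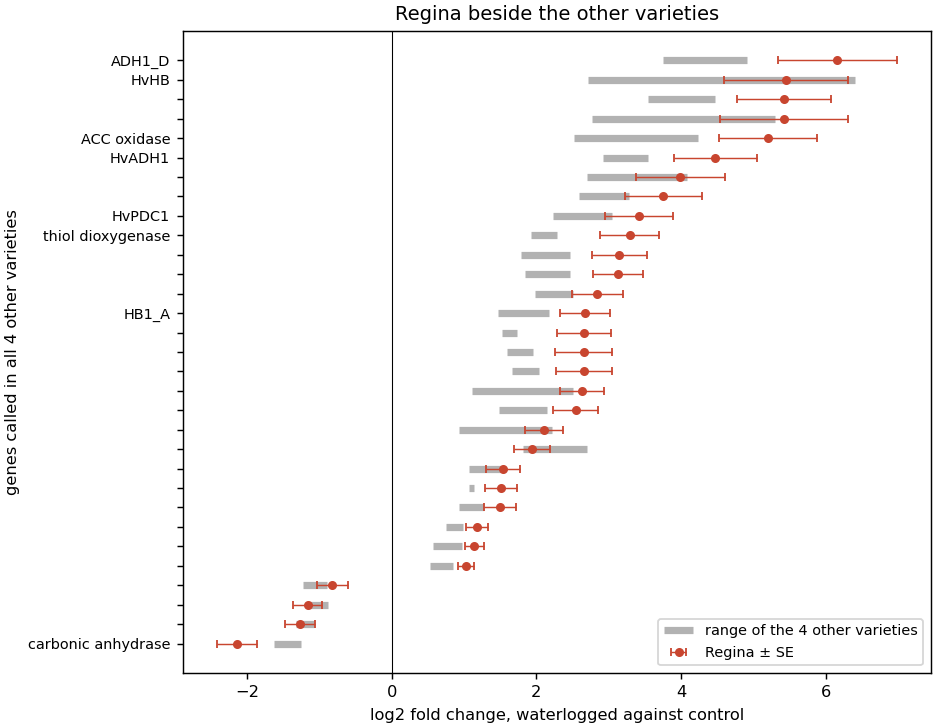
Log2 fold changes of 31 of the 33 genes called in all 4 other varieties, sorted by the value in Regina (red points with SE); gray bars span the lowest to the highest of the 4 other varieties, and genes named in the text are labelled. The peroxidases 2HG0119630 and 2HG0119650, with no count in waterlogged Regina roots, are left out. In 22 of the 27 raised genes the Regina point lies to the right of the gray bar.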

How the data were processed

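Roots of 5 barley varieties were sequenced with 3 samples per variety and treatment; labels gave the group of all 30 libraries. Replicates are pools of different plants from experiments that the study ran independently. P-values measure the spread between these pools, differences between runs included, with an estimate shared by all 30 libraries. The authors used bowtie2 2.4.5 to place short single-end reads on the Morex version 3 assembly; this aligner does not split reads over introns, and the files were made with SAMtools 1.15.1 and StringTie 2.1.7. The deposited values are counts per gene, not normalized. All columns were used (0 unused).

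The counts were tested with edgeR 4.0.16 (R 4.3.3; quasi-likelihood F-test, TMM, filterByExpr, 1 coefficient per group, all 30 libraries in 1 fit, as the authors' DESeq2 model combined variety and treatment). P-values were adjusted over all 20576 genes (Benjamini-Hochberg, threshold 0.05). SE was derived from F. Code was tested on simulated data, and figures were drawn with python 3.11.15. Bounds use 3 counts per library; floors and intervals cover counting error only. Library pairs of a group differed by more than sampling noise (chi-square per degree of freedom 13.7 to 38.8). Alternatives were DESeq2 1.42.0, its size factors, other filters, a 2-fold threshold, other sets of libraries, each Regina library left out, and the replicate number as a block. The study ran the experiment several times, and labels do not say whether a number marks a run. Deviations of same-numbered Regina samples correlated at 0.137, 0.282 and 0.446 over 14936 genes, each the highest of its pairings, so the numbers were taken to pair samples. The main test left this pairing out, and its SE and adjusted p are those of unpaired groups. The pairing entered only the fits with the replicate block. With all 30 libraries that fit called 1202 genes, 756 of them among the 832.

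Named genes were those the study gives by identifier; the 15 most raised and 15 most lowered called genes with a description, groups not overlapping and a mean of at least 5 CPM in the higher group; per list, up to 6 called members by smallest p, or, with none, that with most counts; the 6 described genes with the smallest p in the contrast; and 2 raised and 2 lowered genes without a description. The thiol dioxygenases 5HG0473030 and 6HG0605360 and the neighbour 5HG0485780 were named after their values were seen. Members and lists were chosen with earlier results of these data known. Lists came from supplementary tables of which part was at hand: a block sorted by description and the start of chromosome 1H. No identifier matched the reference list at hand, and sequences were not used here.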

Additional observations from a re-analysis of the deposited data

Results flagged for a closer look

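In the test of the Regina response against the mean response of the other 4 varieties, 1 gene differed (edgeR adjusted p = 0.022). It lies on chromosome 7H and has no description at hand. Regina controls held 13, 4 and 5 counts of it and the waterlogged Regina libraries none, at least 2.34-fold lower with a floor of 3 counts per library (adjusted p = 0.000274 within Regina), while its log2 fold change was 0.11, -0.22, 0.34 and 0.31 in Golden Promise, Infinity, Passport and Pilastro. The adjusted p of the difference was 0.0493 with DESeq2 and 0.0553 with the replicate block. It was 0.138 without the control with number 1 and 0.189, 0.176 and 0.070 without the waterlogged samples with numbers 1, 2 and 3. The part of low depth in this difference was not tested.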

How the results depend on the processing

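The 832 Regina calls became 817 with DESeq2's size factors, 739 without a filter, 815 with a stricter filter, 704 with the winter varieties alone and 1235 with DESeq2. They fell to 123 against a 2-fold threshold and to 345 with the 6 Regina libraries alone (568 with the block added), and ranged from 445 to 756 without 1 library. With the replicate block 1202 genes were called, 756 of them among the 832. The 1 call in the contrast with the other varieties became 12 with DESeq2, 8 with the replicate block and 0 against a 2-fold threshold, and ranged from 0 to 4 without 1 library; it remained 1 with the other scaling and filters. The cause of these shifts was not tested, apart from the smaller number of libraries and the stricter hypothesis that some settings have by construction.

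Of 105 named genes, 87 were called, 34 of them in every alternative that tested them. No direction reversed in 1249 values under alternatives, 183 lost and 3 gained significance. The block ended 10 calls and added 1, each given beside its gene, and changed no other call of a named gene. Depth limits genes at the floor: 3 counts per library were 0.268 to 0.292 CPM. The stricter filter left 3 named genes untested.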

Other observations

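Called genes were spread over all 7 chromosomes, from 3.43% of the genes tested on chromosome 6H to 4.72% on chromosome 5H. Genes with consecutive identifiers were often raised together. Of 188 raised genes whose next identifier was tested, 14.9% had a raised neighbour, beside 2.56% of all genes; of 121 such lowered genes, 7.44% had a lowered neighbour, beside 1.49%. In all, 28 neighbouring pairs rose, 9 fell and 4 moved apart, among 7563 pairs tested. The raised pairs included the thiol dioxygenases 5HG0425080 and 5HG0425090 and the ACC oxidases 5HG0485780 and 5HG0485790, which share a description. Whether reads were shared between such copies was not tested.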
